A study of Rattus norvegicus with 12 samples.

Results

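The luminal layer of the mammary duct was described here through 10 genes that mark it, Krt7, Krt8, Krt18, Krt19, Epcam, Cdh1, Gata3, Foxa1, Elf5 and Ehf, in glands of young female rats. The genes were chosen by name, as probes for genes that carry one of these 10 names on the array. All 10 were among the 26456 gene names on the array, with 12 probes and 31 spots, and all 10 passed the filter on dim probes. The samples were lumbar mammary glands of female Wistar rats, cleared of the lymph nodes that could be seen. Their mothers had eaten a normal protein diet of 17.0% protein (NP) or a low protein diet of 8.8% protein (LP) in pregnancy, and every mother ate standard chow in lactation, as did the offspring once weaned. NP and LP rats were killed at day 21 or at day 28, with 3 rats in each of the 4 groups and 1 array for each rat. The RNA was that of the whole gland, with its fat, stroma, vessels and leukocytes. The paper describes taking rats of each litter at both days, so rats of a diet at day 21 and day 28 may share a mother. The labels do not tie a rat's number to its mother.

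A mammary duct has an inner luminal layer, which faces the lumen and can turn to milk production, and an outer basal layer of contractile myoepithelial cells. Keratins 8 and 18 pair with each other in the intermediate filaments of simple epithelia, and keratins 7 and 19 join them in luminal cells. Epcam is a surface adhesion protein of epithelia, and Cdh1 encodes E-cadherin, which holds epithelial cells together. Gata3 and Foxa1 are transcription factors of the luminal and hormone-receptor-positive lineage, Gata3 being needed to keep luminal cells differentiated. Elf5 and Ehf are related ETS factors of epithelia, and Elf5 directs the alveolar, milk-secreting fate. In RNA of a whole gland, fewer cells of a type and less RNA per cell cannot be told apart.

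The scanner's annotation placed 8 of the 10 main probes on the rat genome build rn4. The Krt8 probe lay at chr7:140716967-140717949, the Krt19 probe at chr10:89081437-89081496, the Epcam probe at chr6:11181855-11182638 and the Cdh1 probe at chr19:36511853-36511912. The Gata3 probe lay at chr17:80011340-80011399 and the Foxa1 probe at chr6:78005464-78005523. Elf5, at chr3:88691756-88691815, and Ehf, at chr3:88518960-88519019, lay on one chromosome and the same strand. In the order of protein-coding genes of the newer RefSeq assembly GRCr8, 0 genes stood between Elf5 and Ehf, and 0 between Krt8 and Krt18, which lie on opposite strands. Which exons the probes fall in was not analysed here.

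The 250 bases before the transcription start were found for 4 of the 10 members among the RefSeq sequences of GRCr8, Krt8, Krt18, Epcam and Gata3. These 4 are shown because a sequence was at hand for them, and they were not chosen by their values on the arrays. Capitals mark exact matches, on either strand, to 6 short motifs. The GC box, searched as GGGCGG, is the site of the general activator Sp1. The TATA box, searched as TATAAA, is where the general initiation machinery can bind. The E box was searched as CACCTG, a form known from repressors of E-cadherin. The GATA motif, searched as AGATAA, is the kind of site that Gata3 binds. The ETS core, searched as GGAAGT, is the kind of site of Elf5 and Ehf. The forkhead motif, searched as TGTTTAC, is the kind of site of Foxa1. The sequences are written 5′ to 3′ in the direction of the gene and end at the base before the start. Krt8 is chr7:135010340-135010589 on the minus strand, Krt18 chr7:135035918-135036167 on the plus strand, Epcam chr6:12649679-12649928 on the minus strand and Gata3 chr17:73553298-73553547 on the plus strand.
Krt8: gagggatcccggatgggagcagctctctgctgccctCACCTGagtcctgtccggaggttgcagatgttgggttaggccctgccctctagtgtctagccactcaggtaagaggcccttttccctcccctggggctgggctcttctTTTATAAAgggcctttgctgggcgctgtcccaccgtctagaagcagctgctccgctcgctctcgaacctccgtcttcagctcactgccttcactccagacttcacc
Krt18: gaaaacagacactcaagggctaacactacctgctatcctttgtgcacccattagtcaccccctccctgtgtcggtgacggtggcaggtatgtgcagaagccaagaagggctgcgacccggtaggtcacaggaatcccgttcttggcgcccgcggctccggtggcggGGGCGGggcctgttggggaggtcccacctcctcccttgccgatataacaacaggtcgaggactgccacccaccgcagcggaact
Epcam: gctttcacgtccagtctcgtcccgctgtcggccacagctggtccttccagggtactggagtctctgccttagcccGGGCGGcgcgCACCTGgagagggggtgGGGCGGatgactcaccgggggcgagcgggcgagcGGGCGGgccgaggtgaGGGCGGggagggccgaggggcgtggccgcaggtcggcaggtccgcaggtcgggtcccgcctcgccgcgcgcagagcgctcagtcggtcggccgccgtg
Gata3: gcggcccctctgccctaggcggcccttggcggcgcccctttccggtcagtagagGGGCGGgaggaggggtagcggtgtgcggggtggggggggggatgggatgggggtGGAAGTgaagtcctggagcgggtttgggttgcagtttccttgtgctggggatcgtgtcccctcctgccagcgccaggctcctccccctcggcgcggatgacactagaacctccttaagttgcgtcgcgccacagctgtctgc

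All 4 sequences were richer in G and C than the median of 51.2% over 33469 promoters, with 60.0% for Krt8, 62.0% for Krt18, 68.4% for Gata3 and 75.6% for Epcam. The Krt8 sequence held 2 overlapping TATA box matches, 106 and 104 bases before the start, and an E box 214 bases before it. The Krt18 sequence held 1 GC box, 84 bases before the start, and no TATA box. Epcam had 4 GC boxes, at 175, 148, 114 and 98 bases, and an E box at 165. Gata3 had a GC box at 196 bases and an ETS core at 142, and its listed start lies within the annotated span of the gene. Of all promoters of this length, 30.5% held the GC box, 12.9% the TATA box, 15.9% the E box, 10.3% the GATA motif, 19.2% the ETS core and 3.2% the forkhead motif. A match of letters does not show that a factor binds there.

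Values are given as log2 signal minus the array's 75th percentile, so that 0 is the level of that percentile and 1 unit is a doubling. Each of the 12 arrays carried 58717 gene spots, none of them saturated, and between 74.8% and 79.6% of these were well above background. The main probes of the members were well above background on all 12 arrays, except that of Ehf, which was not on the array of NP rat 4a at day 21. All arrays of day 21 were on 1 slide and all of day 28 on another, so day and slide cannot be told apart. One array stood apart from the rest. LP rat 6a of day 21 lay at 114.6 on the first principal component, which held 33.4% of the variance, against -61.4 to 11.1 for the other 11 arrays.

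LP rat 6a also had the highest value of the 12 arrays for 10 of the 10 members, and its RNA differed in the markers of other tissues. It was the lowest of 12 in 8 of 8 lymph node and leukocyte markers, with a mean over the list of -4.98 against -0.49 to 0.52 on the other arrays. The T cell gene Cd3e read -7.12 on its array against -1.07 to 0.03 on the others, and the pan-leukocyte gene Ptprc -1.33 against 2.06 to 3.01. It was the highest in 5 of 6 epidermis markers and in 7 of 7 skeletal muscle markers. The mean over the epidermis list was -1.92 on its array, -2.56 on that of NP rat 5a at day 21 and -6.48 to -5.48 on the other 10. In skeletal muscle markers other arrays came near it. The mean over that list was 2.62 on its array, 2.17 for NP rat 6a of day 21 and 2.02 for LP rat 6f of day 28. The rest lay from -3.87 to -0.003. The part of these tissues in the results was not tested. Values without this array are given beside the members' diet differences, their correlations and the day 21 medians of most gene lists.

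The keratins are given first, with each gene followed across arrays, since signals of different probes cannot be set against each other. Krt8 read -0.67, 0.41 and -0.31 in NP rats 4a, 5a and 6a at day 21, and 0.77, 1.36 and -0.40 in LP rats 4a, 6a and 7c. At day 28 Krt8 read -1.58, 0.20 and 0.13 in NP rats 4f, 5f and 6f, and 0.40, 0.53 and 0.45 in LP rats 4f, 6f and 7f. At day 21 the groups overlapped, with LP rat 7c between the 2 lower NP rats, whereas at day 28 the 3 LP rats lay above all 3 NP rats within a narrow band. Krt18, the partner of Krt8, read 3.13, 3.89 and 2.94 in NP and 4.18, 4.78 and 3.43 in LP at day 21. At day 28 Krt18 read 2.62, 3.81 and 3.88 in NP and 4.18, 4.07 and 3.97 in LP. The order of the rats was nearly that of Krt8, with NP rat 4f lowest of all and LP rat 6a highest.

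Krt7 read -2.57, -1.52 and -2.99 in NP and -1.74, -0.85 and -2.63 in LP at day 21, then -2.68, -1.68 and -1.92 in NP and -1.80, -1.20 and -2.11 in LP at day 28. Krt19 read -0.55, 0.83 and -0.04 in NP and 0.87, 1.42 and 0.20 in LP at day 21, then -0.62, 0.94 and 0.59 in NP and 0.72, 1.08 and 0.68 in LP at day 28. For both keratins the NP and LP rats overlapped at each day.

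The adhesion genes followed the same rats. Epcam read 0.51, 1.70 and 0.65 in NP and 1.90, 2.74 and 1.0 in LP at day 21. At day 28 Epcam read 0.43, 1.38 and 1.25 in NP and 1.71, 1.94 and 1.87 in LP, so that the 2 diets did not overlap at day 28. Cdh1 read 0.16, 1.17 and 0.24 in NP and 1.16, 2.18 and 0.42 in LP at day 21, then 0.09, 1.22 and 1.01 in NP and 1.07, 1.40 and 1.18 in LP at day 28. For Cdh1 the highest NP rat of each day reached into the range of the LP rats.

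Among the transcription factors, Gata3 read -1.86, -0.74 and -1.59 in NP and -0.54, 0.18 and -1.32 in LP at day 21, then -1.56, -0.89 and -1.19 in NP and -0.97, -0.66 and -0.80 in LP at day 28. Foxa1, a pioneer factor that opens chromatin for the oestrogen receptor, read -4.64, -3.58 and -4.21 in NP and -3.41, -2.52 and -3.66 in LP at day 21. At day 28 Foxa1 read -4.55, -4.10 and -3.85 in NP and -3.41, -3.87 and -3.22 in LP. At day 21 LP rat 7c lay below the highest NP rat in both genes. At day 28 LP rat 4f did so in Gata3 and LP rat 6f in Foxa1, and the other LP rats lay above all NP rats of their day.

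Elf5 and Ehf had another pattern at day 28. Elf5 read -1.45, 0.44 and -0.36 in NP and 0.25, 1.07 and -0.76 in LP at day 21, then -0.34, 0.26 and -0.36 in NP and -0.56, 0.31 and -0.15 in LP at day 28. Ehf read -7.13, -5.41 and -6.03 in NP and -5.01, -3.80 and -5.51 in LP at day 21, then -5.77, -5.75 and -5.80 in NP and -6.19, -5.38 and -5.74 in LP at day 28. For both ETS factors the diets overlapped at both days. The 3 NP rats of day 28 had an SD of 0.02 in Ehf, against 0.87 in NP at day 21. That 0.02 lay below the median SD of 0.15 between the 2 spots of the Ehf probe. It is thus no measure of how alike the rats were. The 0.87 includes NP rat 4a, whose Ehf signal was not well above background.

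**Figure D1:**
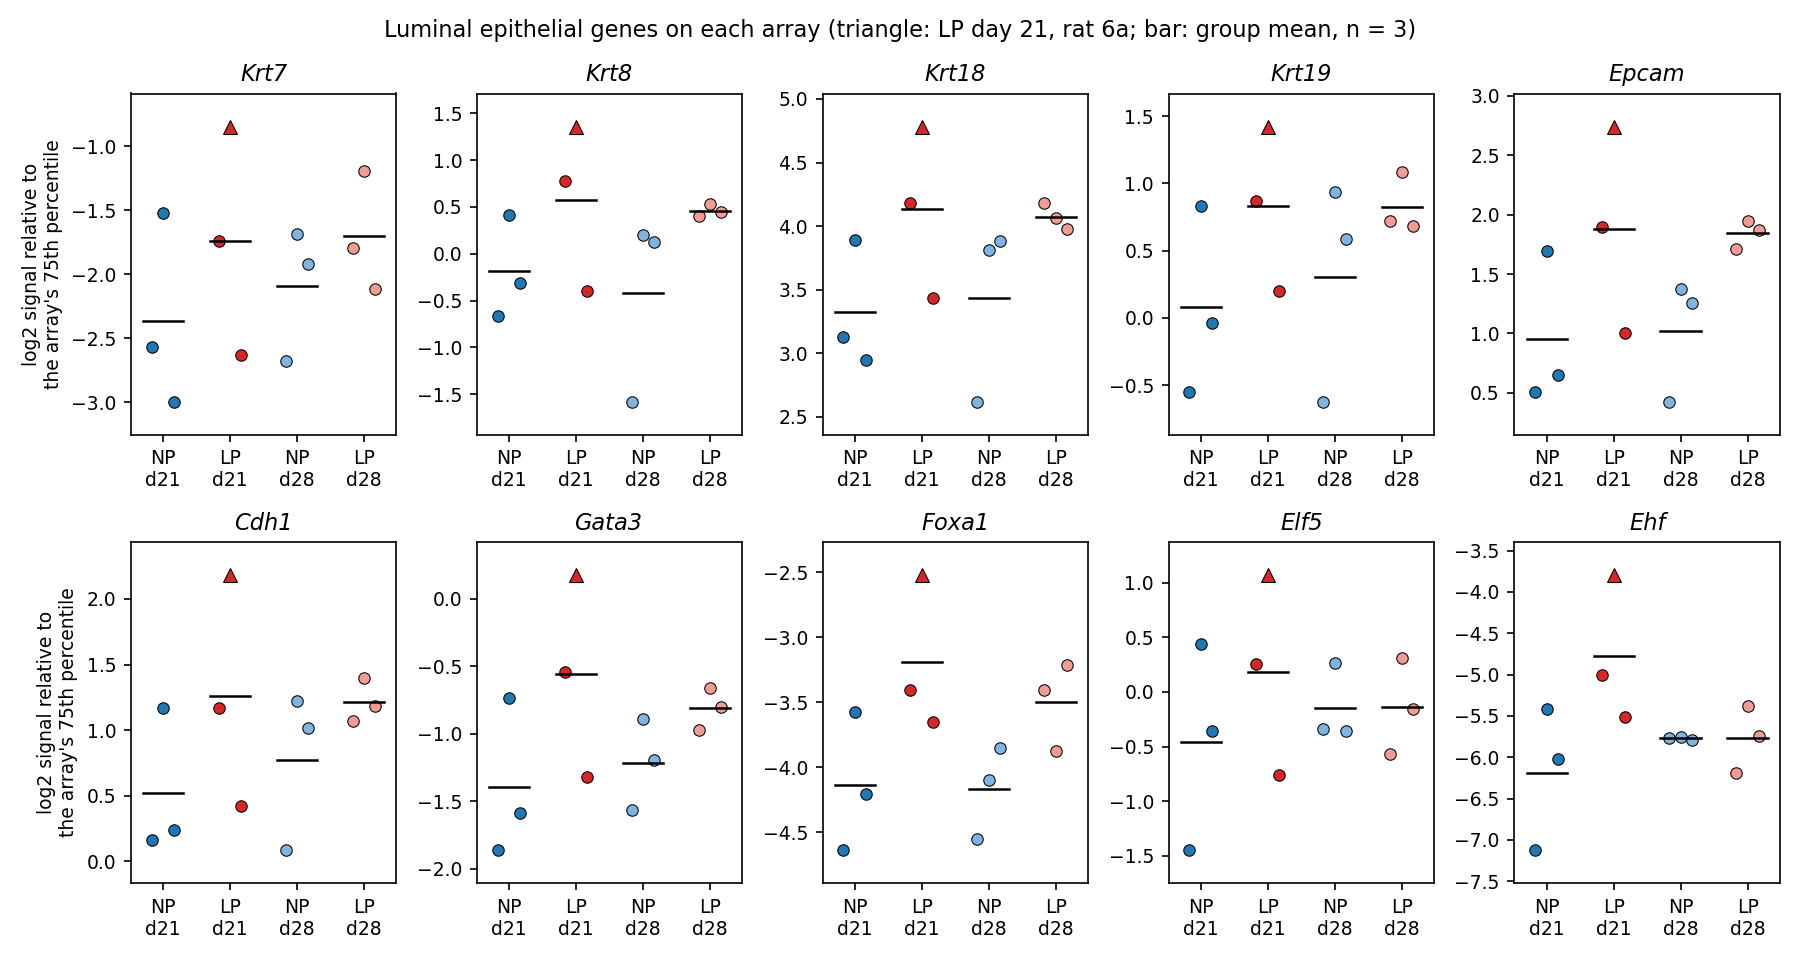
Log2 signal minus the array's 75th percentile (y axis) for each of the 10 genes in the 4 groups (x axis), 1 point for each rat, with a bar at the mean of 3 rats and a triangle for LP rat 6a of day 21. The triangle is the highest point in all 10 panels, and at day 28 the LP rats of Krt8, Krt18 and Epcam lie above all NP rats.

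From the lowest to the highest of the 12 arrays, the members spanned 4.11-fold for Gata3, 4.13-fold to 4.98-fold for Krt19, Cdh1, Foxa1, Krt7, Krt18 and Epcam, 5.72-fold for Elf5 and 7.67-fold for Krt8. Ehf spanned at least 8.54-fold, a bound, since its lowest value was not well above background and the lowest signal well above background on that array stood in for it. The lowest value was that of NP rat 4f of day 28 in 5 members, of NP rat 4a of day 21 in 4 and of NP rat 6a of day 21 in 1. After LP rat 6a, whose median rank over the members was 1, LP rat 4a of day 21 and LP rat 6f of day 28 followed with a median rank of 3. NP rat 4f had a median rank of 11.5.

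The first comparison asked whether the mothers' low protein diet was followed by another level of luminal genes in the offspring's gland at day 21, the day of weaning. The mean of the LP rats lay above that of the NP rats for all 10 members, where 52.4% of the 20197 genes tested had a difference above 0. The median difference was 0.79 on the log2 scale over the members and 0.01 over all genes. None of the 10 passed the adjusted test of limma, which called 0% of genes, and 2 were higher at an unadjusted p under 0.05, Ehf and Foxa1, where 2.10% of genes were. In 0 of the 10 did all LP rats lie above all NP rats, where 5.58% of genes had such a separation.

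Ehf had the largest difference at day 21, with group means of -6.19 ± 0.87 in NP and -4.77 ± 0.88 in LP (SD, n = 3). The difference was 1.42 (95% interval 0.34 to 2.49), or 2.67-fold, with a limma adjusted p of 0.861. The lowest of the NP values, that of rat 4a, was not well above background. Foxa1 stood at -4.14 ± 0.53 in NP and -3.19 ± 0.60 in LP, a difference of 0.95 (0.17 to 1.73) or 1.93-fold, also with an adjusted p of 0.861 by limma. Epcam differed by 0.93 (-0.07 to 1.93), Gata3 by 0.84 (-0.01 to 1.68), Krt18 by 0.81, Krt8 by 0.77, Krt19 by 0.75, Cdh1 by 0.73, Elf5 by 0.64 and Krt7 by 0.62, and each of these intervals included 0. With the row on the slide as a covariate, 0 members had an unadjusted p under 0.05. The exact two-sided permutation test of 3 against 3 gave p-values of 0.2 to 0.5 for the 10 members, where 0.1 is the smallest it can give.

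The size of the day 21 difference rested in good part on LP rat 6a. Without that array all 10 differences were still above 0, from 0.18 for Krt7 to 0.93 for Ehf, with a median of 0.46, and 0 of the 10 had an unadjusted p under 0.05 in limma. Leaving out LP rat 7c, the lowest of the 3 LP rats in every member, gave a median of 1.17 and 7 members with an unadjusted p under 0.05, though 0 passed the adjusted test. Without NP rat 5a there were 6 such members, without NP rat 4a there were 0, and without NP rat 6a there was 1.

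At day 28 the LP means again lay above the NP means in all 10 members, where 42.6% of all genes had a difference above 0. The median was 0.49 over the members and -0.05 over all genes. Krt8, Krt18 and Epcam were separated, every LP rat above every NP rat, which held for 4.42% of genes, and the exact permutation p was 0.1 for each, the smallest possible. No member passed the adjusted test of limma, which again called 0% of genes, and 0 had an unadjusted p under 0.05, where 1.92% of genes were higher by that measure.

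Krt8 differed by 0.88 at day 28 (95% interval -0.32 to 2.08), from -0.42 ± 1.01 in NP to 0.46 ± 0.07 in LP. Epcam differed by 0.82 (-0.18 to 1.83), from 1.02 ± 0.52 to 1.84 ± 0.12, and Krt18 by 0.64, from 3.44 ± 0.71 to 4.07 ± 0.10. In these 3 genes the LP rats lay within a spread of SD 0.07 to 0.12 and the NP rats were apart from each other, mainly through NP rat 4f. Foxa1 differed by 0.67, with an adjusted p of 0.581 by limma, the same as that of Epcam. Krt19 differed by 0.53, Cdh1 by 0.44, Gata3 by 0.41 and Krt7 by 0.39. Elf5 differed by 0.01 and Ehf by 0.00, with intervals of -1.17 to 1.19 and of -1.07 to 1.08, so a difference of 1 log2 unit either way lay within the error. Without NP rat 4f the median over the members was 0.16 and that of Elf5 was -0.09.

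Over both days, with 6 LP and 6 NP rats, all 10 members again had a difference above 0, where 45.8% of genes did. The median was 0.67 against -0.02 over all genes. The 6 rats of a diet were taken as independent, though rats of different days may share a mother. Of the 10 members 4 were higher at an unadjusted p under 0.05, where 4.29% of genes were, and none passed the adjusted test, which called 0% of genes. These were Foxa1, 0.81 higher (0.26 to 1.36) or 1.75-fold, Epcam, 0.88 higher (0.17 to 1.58) or 1.84-fold, Krt18, 0.72 higher, and Gata3, 0.62 higher. Krt8 differed by 0.82, Ehf by 0.71, Krt19 by 0.64, Cdh1 by 0.59, Krt7 by 0.51 and Elf5 by 0.33. Adjusted p-values of limma over all probes ran from 0.418 to 0.675 for the members. Without LP rat 6a the median over the members was 0.48, and 2 members had an unadjusted p under 0.05. That number was 1 without NP rat 4f of day 28 and 8 without NP rat 5a or LP rat 7c of day 21. It was 0 with the row on the slide as a covariate.

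The second probes of Elf5 and Foxa1 did not wholly follow the first. The second Elf5 probe, well above background on only 6 of 12 arrays, had LP above NP by 1.57 at day 21 and by 1.39 at day 28, where the main probe gave 0.64 and 0.01. The second Foxa1 probe, well above background on 4 arrays, gave 0.47 at day 21 against 0.95 for the main probe, and it was not well above background on any array of day 28.

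**Figure D2:**
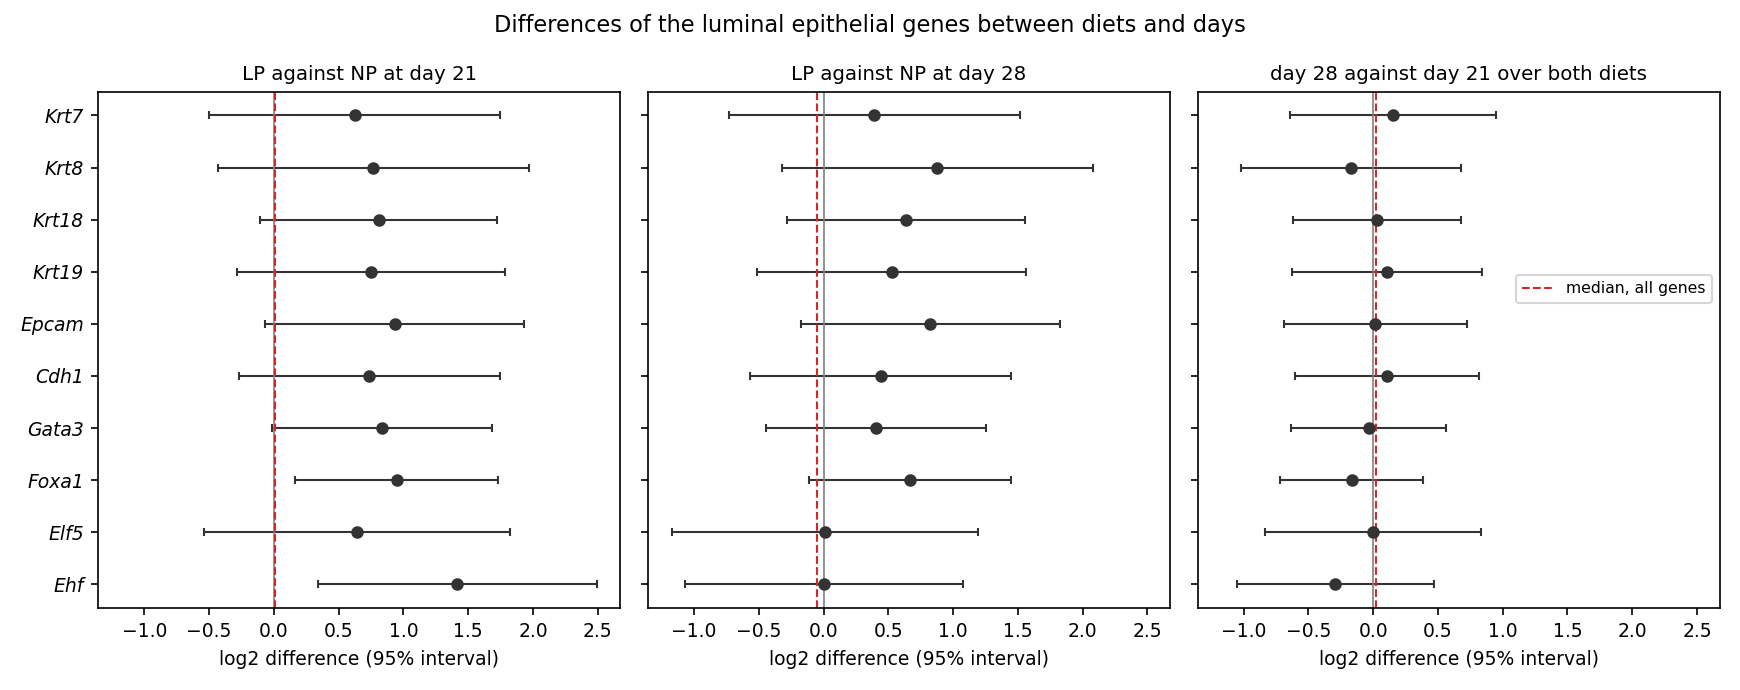
Differences in log2 signal (x axis) with 95% intervals from the limma fit for each gene (y axis), for LP against NP at day 21 and at day 28 and for day 28 against day 21 over both diets. The dashed line is the median of all 20197 genes tested, which lies near 0 in each panel. The day 21 points lie between 0.62 and 1.42, those of day 28 between 0.00 and 0.88, and the day points between -0.29 and 0.15.

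The days were compared to see whether luminal genes changed over the week after weaning. Over both diets the members differed by -0.29 (Ehf) to 0.15 (Krt7) between day 28 and day 21, with a median of 0.01 against 0.02 over all genes. The difference was above 0 in 5 of 10 members, where 53.9% of genes were. No member passed the adjusted test of limma, which called 1.84% of genes, and none reached an unadjusted p under 0.05 in either direction, where 10.4% of genes were higher and 8.59% lower. The 95% intervals ran from -0.72 to 0.39 for Foxa1, the narrowest, to -1.02 to 0.68 for Krt8, the widest. These arrays do not exclude a change inside such bounds.

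Within NP rats 8 of 10 members were above 0 (56.8% of genes), from -0.23 to 0.41 with a median of 0.20. Within LP rats 1 of 10 was (48.4% of genes), from -1.0 to 0.04 with a median of -0.09. The lowest of these, Ehf in LP rats, went from -4.77 ± 0.88 at day 21 to -5.77 ± 0.41 at day 28, with an adjusted p of 0.528 by limma. Without LP rat 6a the median over the members in LP rats was 0.27, and without LP rat 7c it was -0.51, so that its direction depended on which of these rats was kept.

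Whether the diet difference itself changed between the days was tested as an interaction. It was above 0 in 1 of 10 members, where 42.1% of genes were, with a median of -0.26. No member passed the adjusted test of limma, which called 0% of genes. At an unadjusted p under 0.05 there were 0 members, where 0.436% of genes were higher and 1.83% lower. The largest change was that of Ehf, -1.41 (95% interval -2.93 to 0.11), whose diet difference was 1.42 at day 21 and 0.00 at day 28. The median over the members was 0.11 without LP rat 6a.

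The 10 genes moved together from rat to rat. Over the 45 pairs of members the median Pearson r of the log2 values across the 12 arrays was 0.877, from 0.639 to 0.971, where the median over all pairs of 20167 genes was 0.0061. Of all gene pairs, 0.314% reached the members' median. After each group's mean was taken away, so that diet and day could not contribute, the members' median was 0.861 (0.571 to 0.989), reached by 0.581% of all pairs. Over the 45 pairs, Pearson's r of the values passed a permutation test at an adjusted p under 0.05 in 45 and Spearman's rho in 41. For the deviations from group means the numbers were 44 and 39. The deviations were permuted freely over the 12 arrays although they sum to 0 in each group, so these p-values can be too small. Without LP rat 6a the median r of the values was 0.819 (0.431 to 0.968).

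Krt8 and Krt18, the partner keratins, had an r of 0.956 (permutation p = 2e-05, adjusted 6.923e-05) and a rho of 0.902 (p = 0.00014, adjusted 0.000675). Without the 2 arrays farthest from the median of Krt8, those of LP rat 6a and NP rat 4f, r was 0.911. The highest of the pairs was Epcam with Gata3, with an r of 0.971 (permutation p = 1e-05, the smallest these permutations can give, adjusted 5.625e-05) and a rho of 0.937 (p = 3e-05, adjusted 0.0003375). It was 0.965 without the same 2 arrays. In the deviations the closest pair was Epcam with Cdh1, at 0.989.

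The 3 remaining transcription factors were less closely tied. Elf5 and Ehf, neighbours on the chromosome, had an r of 0.877 (permutation p = 0.0006, adjusted 0.001038) and a rho of 0.783 (p = 0.00395, adjusted 0.006222), and an r of 0.952 in the deviations. Without LP rat 6a and NP rat 4a of day 21, the 2 arrays farthest from the median of Elf5, r of the values was 0.591. Foxa1 and Ehf had an r of 0.773 (permutation p = 0.00536, adjusted 0.0067) and a rho of 0.615 (p = 0.03751, adjusted 0.0422). Without the same 2 arrays, here the farthest from the median of Foxa1, r was 0.255. It was 0.568 without LP rat 6a alone and 0.720 in the deviations. Leaving out the ends of a gene's range can lower r by itself, so the drop does not settle how far the relation rests on these arrays. Foxa1 and Elf5 had an r of 0.645 (permutation p = 0.02446, adjusted 0.02522) and a rho of 0.448 (p and adjusted p = 0.1475). Their r was 0.0718 without the 2 arrays, with the same limit, 0.432 without LP rat 6a alone and 0.681 in the deviations.

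**Figure D3:**
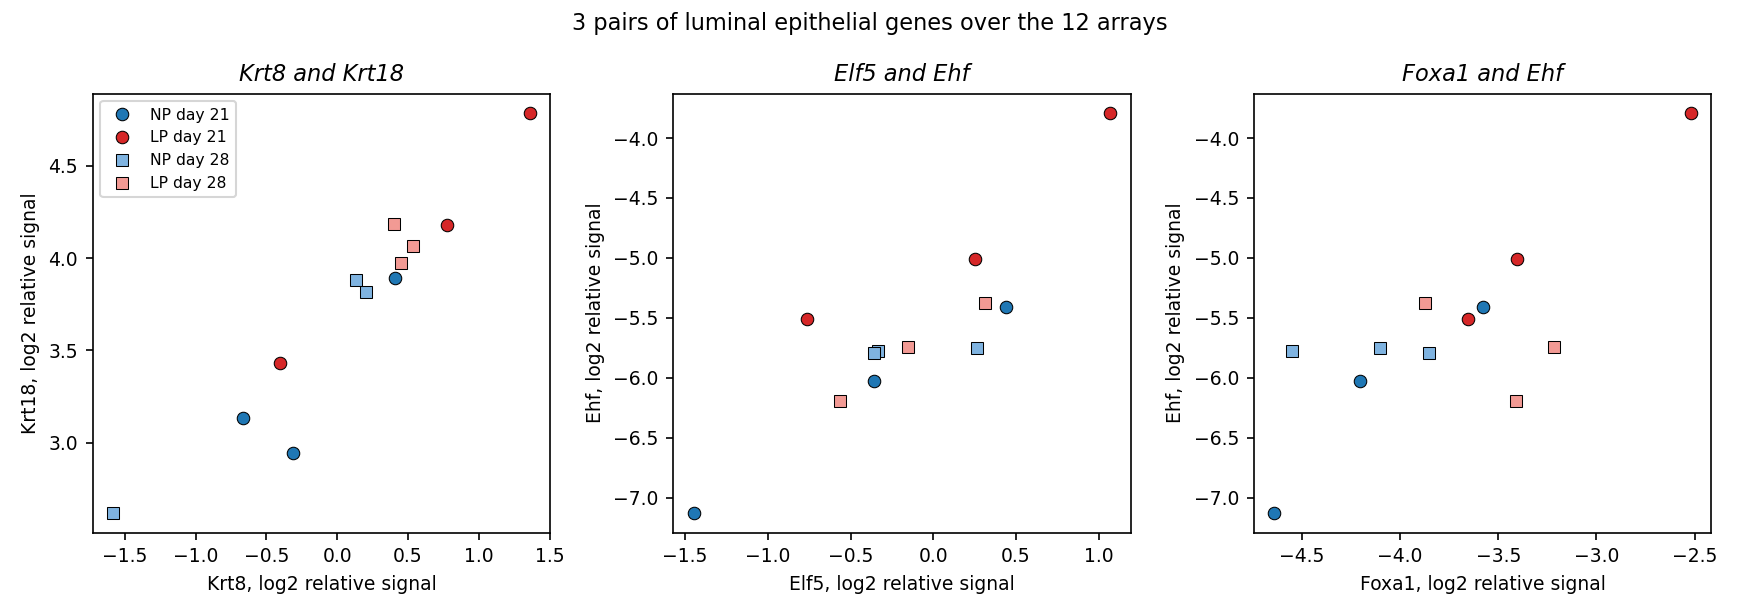
Log2 signals of 2 genes against each other on the 12 arrays, 1 point for each rat, coloured by group, for Krt8 with Krt18, Elf5 with Ehf and Foxa1 with Ehf. The Krt8 and Krt18 points follow 1 line (r = 0.956), while in the Foxa1 and Ehf panel LP rat 6a and NP rat 4a mark the ends and the other 10 have an r of 0.255.

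The pairs differed between the days. Over the 6 arrays of day 21 the median r was 0.953 (0.802 to 0.998), and 45 of 45 pairs passed the exact permutation test at an adjusted p under 0.05. Over the 6 arrays of day 28 the median was 0.791 (-0.289 to 0.993) and 4 of 45 pairs passed the exact test, Krt7 with Krt19, Krt8 with Epcam, Krt19 with Cdh1 and Cdh1 with Gata3. The difference between the days was not tested. Without LP rat 6a, over the 5 arrays left of day 21, the median r was 0.905 (0.568 to 0.995), given as a description. With the pairs divided after their values were seen, the 21 pairs among the 4 keratins, Epcam, Cdh1 and Gata3 had an r of 0.776 to 0.993 at day 28, with a median of 0.925. The 21 pairs of 1 of these 7 genes with Foxa1, Elf5 or Ehf had a median of 0.362 at day 28, with 11 of them below 0.5, and a median of 0.932 at day 21. Foxa1 with Ehf went from 0.990 at day 21 to -0.289 at day 28, and Foxa1 with Elf5 from 0.891 to -0.199, while Elf5 with Ehf held 0.913 and 0.803. The values of Ehf also lay closer together at day 28, from -6.19 to -5.38 against -7.13 to -3.80 at day 21, whose lowest value was not well above background. Krt8 was the only member whose range was not smaller at day 28, with 2.11 against 2.03 at day 21. The range went from 2.52 at day 21 to 0.88 at day 28 for Elf5, from 2.04 to 0.90 for Gata3 and from 2.12 to 1.33 for Foxa1. Without LP rat 6a the range was smaller at day 28 only in Gata3, Elf5 and Ehf. The part of these ranges in the lower correlations of day 28 was not tested.

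**Figure D4:**
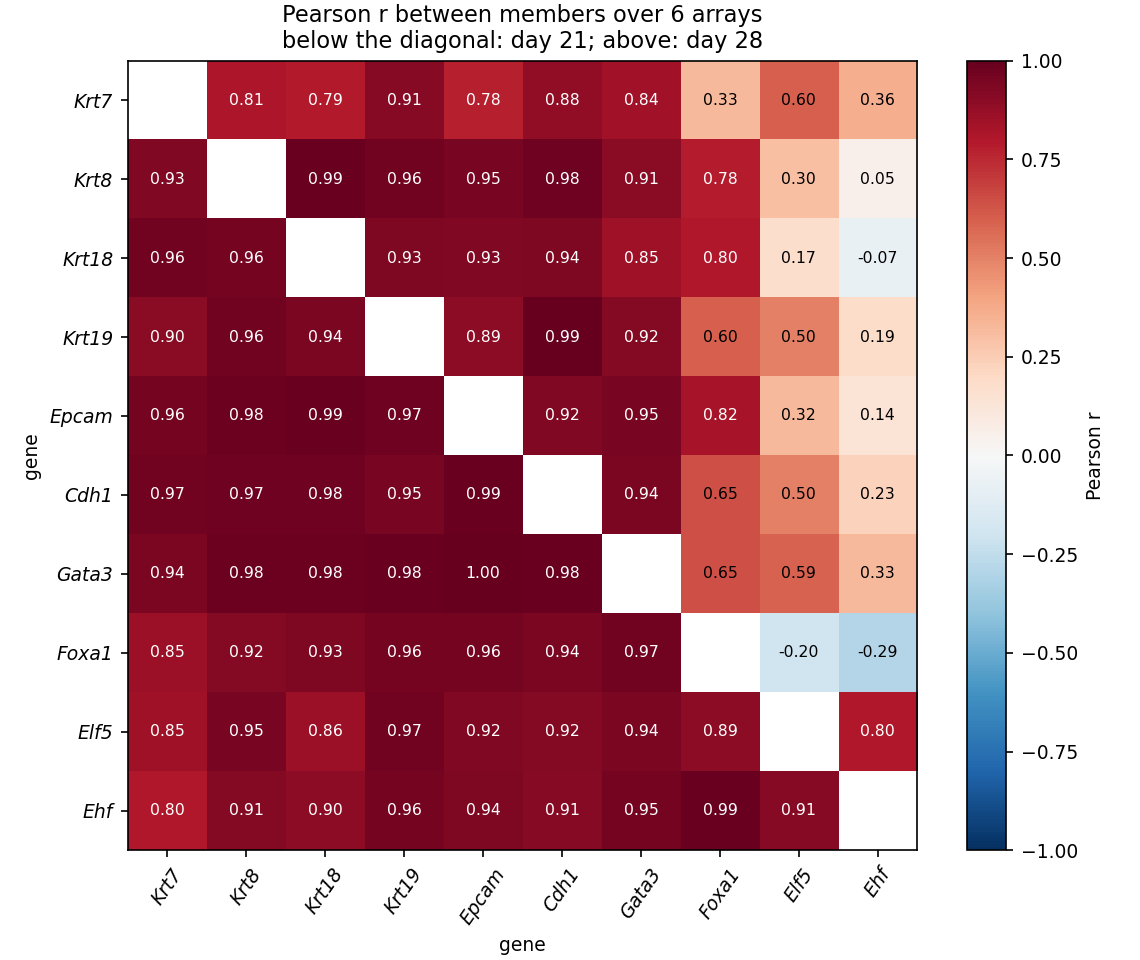
Pearson r between each pair of the 10 genes over the 6 arrays of a day, with day 21 below the diagonal and day 28 above it, on a colour scale from -1 (blue) to 1 (red). Below the diagonal every cell is at 0.80 or higher, and above it the columns of Foxa1, Elf5 and Ehf hold the low and negative values.

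The other epithelial genes were read beside the members from lists of known markers, with no test of the lists. Of 17 measured genes of the general epithelial adhesion and polarity programme, 17 were above 0 in LP against NP at day 21, at day 28 and over both days, with medians of 0.91, 0.49 and 0.69. At an unadjusted p under 0.05, 8 were higher at day 21, 0 at day 28 and 12 over both days, and limma's adjusted test called 0. Without LP rat 6a the day 21 median was 0.51 with 1 gene at an unadjusted p under 0.05, and without NP rat 4f the day 28 median was 0.24 with 16 of 17 above 0. Over both days the 12 genes became 4 without LP rat 6a, 2 without NP rat 4f, 3 without NP rat 6a of day 21 and 6 without LP rat 4f of day 28. Ovol2, which keeps cells epithelial, differed by 0.99 at day 21 and the protease Prss8 by 0.99. The tight junction gene Cldn7 differed by 1.24 and Grhl2, a transcription factor of epithelial junctions, by 1.04. Marveld3 differed by 1.19 at day 21 but was well above background on only 5 arrays.

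Of the 8 genes on the hormone-sensing luminal list, 7 were above 0 at each day. Their medians were 0.78 at day 21, 1.02 at day 28 and 0.97 over both days. The day 21 median was 0.22 without LP rat 6a, 0.51 without NP rat 4a and 1.32 without LP rat 7c, and the medians without NP rat 4f were 0.35 at day 28 and 0.59 over both days. Over both days 3 had an unadjusted p under 0.05, Wnt4, a signal downstream of progesterone, with 1.18, the prolactin receptor gene Prlr with 0.86 and Cited1 with 1.07. Of 9 measured luminal progenitor and secretory genes 8 were above 0 at day 21 and 6 at day 28, with medians of 0.37 and 0.32. These were 0.14 at day 21 without LP rat 6a and 0.18 without NP rat 4a, and at day 28 0.13 without NP rat 4f and 0.12 without LP rat 6f. Among these the milk gene Csn3 differed by 2.81 at day 21 and by 2.44 at day 28, and Ltf, the lactoferrin gene, by -1.06 and -0.56, the other way.

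The list of basal and myoepithelial markers, read in RNA of the whole gland, had values of the same kind. Of 12 basal and myoepithelial markers 11 were above 0 at day 21, 9 at day 28 and 11 over both days, with medians of 0.79, 0.54 and 0.70. The day 21 median was 0.31 without LP rat 6a. Without NP rat 4f the day 28 median was 0.01, with 6 of 12 above 0, and that over both days was 0.35, while without NP rat 5f the day 28 median was 0.89. Krt14, a keratin of the basal layer, differed by 0.91 over both days and Krt17 by 0.92, while Tp63, which encodes the basal lineage factor p63, differed by -0.40 at day 28. Per array, the mean over the members minus the mean over the basal list stayed between -1.44 and -0.98 on 11 arrays and was -0.68 for NP rat 4f. The mean over the members minus that of the epithelial adhesion list ran from 0.58 to 0.84, while the mean over the members itself ran from -1.51 (NP rat 4a) to 0.66 (LP rat 6a).

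As a description over the 12 arrays, which share the tissue each was cut from, the mean over the members and the mean over the epithelial adhesion list had an r of 0.990, and of 0.983 without LP rat 6a. With the basal list r was 0.935 and 0.894, with the luminal progenitor and secretory list 0.902 and 0.850, and with the hormone-sensing list 0.812 and 0.880. The mesothelium list, of which only 2 genes could be tested, came near these, at 0.805 and 0.862. With the proliferation list r was 0.476 and 0.443, and with the hepatocyte list 0.003 and 0.051. The adipocyte list went the other way, at -0.442 and -0.426, and so did the leukocyte list, at -0.674 with LP rat 6a and -0.299 without it. With the epidermis list r was 0.693 and 0.429, with the skeletal muscle list 0.130 and -0.281, with the endothelial list -0.556 and -0.656 and with the fibroblast list 0.408 and 0.306. Of the defining markers, Cd3e was well above background on 11 arrays, Ptprc, Ckm and Acta1 on all 12, and the epidermal Krt1 on 7, Krt10 on 3 and Lor on 12.

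Between LP and NP rats the adipocyte markers had a median of -0.04 at day 21 and 0.03 at day 28, fibroblast markers 0.05 and 0.04, and endothelial markers -0.05 and -0.29. Leukocyte markers had -2.25 and -0.60, with 0 of 8 and 1 of 8 above 0, skeletal muscle markers -0.73 and 0.17, and epidermis markers 0.34 and 0.43. At day 21 the medians without LP rat 6a were 0.03 for the adipocyte, -0.01 for the fibroblast and 0.00 for the endothelial markers, -0.27 for the leukocyte markers, with 1 of 8 above 0, -2.39 for the skeletal muscle markers and -1.10 for the epidermis markers. Without LP rat 7f the day 28 median of the leukocyte markers was -0.39. Leaving out each array in turn gave day 21 medians of -2.39 to 0.46 for the skeletal muscle and -1.10 to 1.76 for the epidermis markers. The range of the leukocyte mean was 0.18 to 0.29 in NP and -4.98 to 0.13 in LP at day 21, and 0.19 to 0.52 in NP and -0.49 to 0.09 in LP at day 28. The part of the lower leukocyte signal in the members' differences was not tested.

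**Figure D5:**
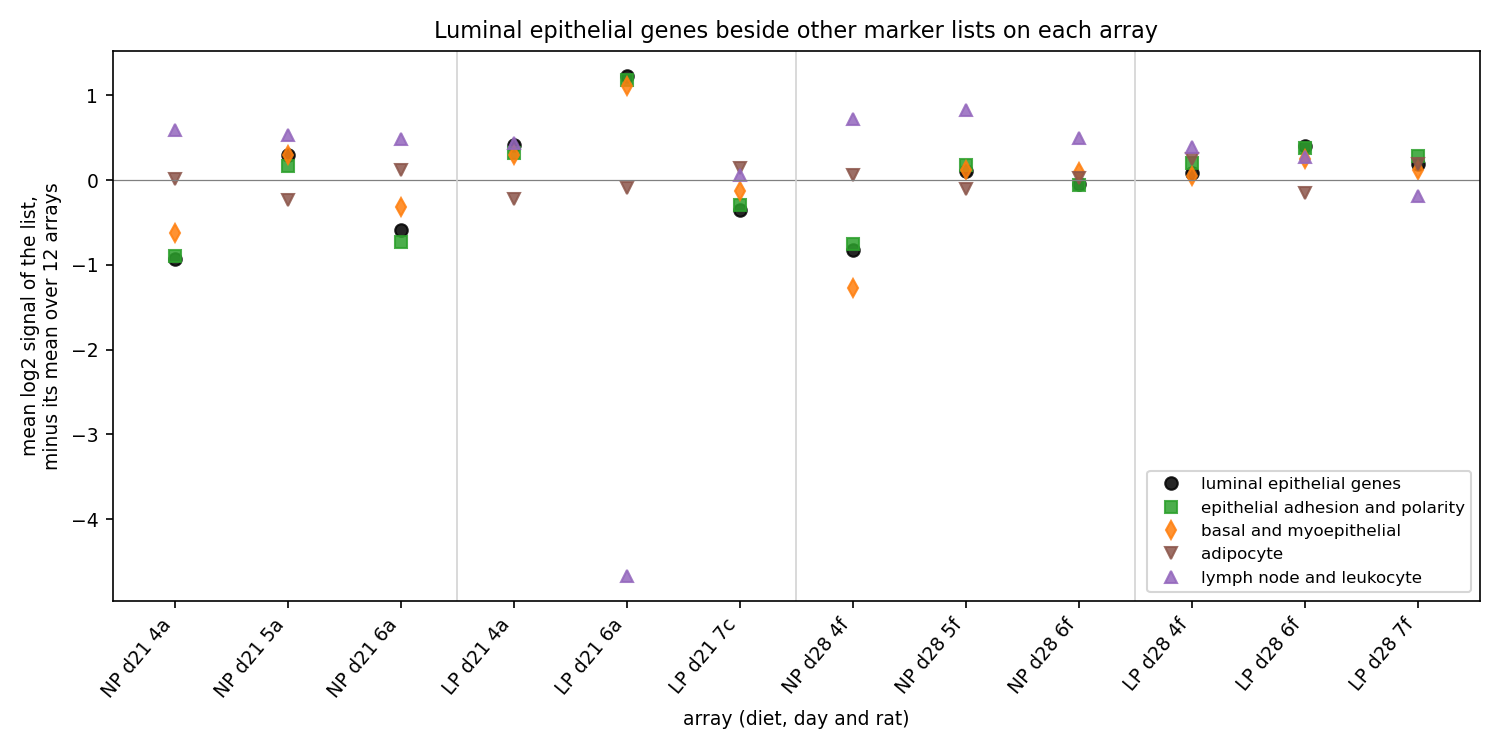
Mean log2 signal of 5 gene lists on each of the 12 arrays (x axis), each minus its mean over the arrays (y axis), with lines between the 4 groups. The luminal, epithelial adhesion and basal points lie close together on most arrays, highest in LP rat 6a, whose leukocyte point lies far below all others.

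Of 17410 further genes well above background on all 12 arrays, those whose deviations from group means were most like the average of 9 members (without Ehf, which is not above background on 1 array) were Spint1, at an r of 0.998, RGD1305347 at 0.992, Fat2 and Tmc4 at 0.990, and Tmprss9, Ppap2c, Bspry and RGD1561490 at 0.989. Fxyd3 and Eps8l1 followed at 0.988. Spint1, which encodes an inhibitor of membrane serine proteases in epithelia, was the only one of these 10 on the lists used here. The lowest r was that of Ppp1r12c, at -0.933, and the median over all ranked genes was -0.0017. Spint1 itself differed between LP and NP by 0.79 at day 21 and 0.36 at day 28, within the range of the members.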

How the data were processed

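Total RNA of 12 lumbar mammary glands was labelled with Cy3 and hybridised to 1-colour Agilent rat arrays, 3 rats in each group. The authors read the images with Agilent Feature Extraction 10.7.3.1, and the deposited scanner files hold an intensity for each spot, background subtracted and detrended within the array but not scaled between arrays. A deposited value table holds the same intensities as a ratio to the array's median gene spot. The probe positions in the scanner files are on rn4. The study's own gene calls were not repeated here.

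From these files, control spots and outlier spots were left out, each array's intensity was divided by its 75th percentile and taken to log2 with no floor (pseudocount 0), and spots of a probe were averaged. Probes well above background (for a probe, on at least 0.5 of its spots) on 3 or more of 12 arrays were kept, which left 23209 of 30367 probes and, with the brightest probe for each gene, 20197 genes. One limma fit (limma 3.58.1, R 4.3.3) over the 4 groups gave all comparisons, with Benjamini-Hochberg adjustment over all 23209 probes and a threshold of 0.05. The number of arrays limits the precision, and no counting error applies. Pairwise correlations were tested with 1e+05 permutations over 12 arrays, or exactly over 6, and adjusted over the 45 pairs (Python 3.11.15, scipy 1.17.1). The fit was tested on simulated data. Background correction, normalization, the filter, the samples in the fit, the replicate number, the row on the slide and each array left out were tried as alternatives. Leaving arrays out of the gene lists and of the day 21 correlations was chosen after seeing the data. The pairing check set the deviations of same-numbered rats from their group means against each other. The named genes are the 10 members, list genes with an unadjusted p under 0.05, the first 3 measured markers of a list, and the 10 genes most like and 5 least like the members. The gene lists covered epithelial adhesion, hormone-sensing luminal, luminal progenitor and secretory, basal, epidermis, mesothelium, hepatocyte, adipocyte, fibroblast, endothelial, leukocyte, skeletal muscle and proliferation genes. The members and the lists were chosen with earlier results of these data known.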

Additional observations from a re-analysis of the deposited data

How the results depend on the processing

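With 3 rats in each group, 0 members passed limma's adjusted test in any comparison under any alternative tried. The counts at an unadjusted p under 0.05 moved. At day 21, where the fit over all arrays gave 2 members higher, the fit on the arrays of that day alone gave 0, the row on the slide as a covariate 0 and the mean over the probes of a gene 1. At day 28, where it gave 0, the arrays of that day alone gave 2. Over both days, where it gave 4, the row on the slide gave 0. The upper row of a slide held all NP arrays of its day but only 1 of the 3 LP arrays. The median correlation of the members' deviations was 0.736 over the arrays of day 28 alone, against 0.861 over all 12. The cause of these moves was not tested.

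With the replicate number as a fixed block, 10 members were higher at an unadjusted p under 0.05 at day 21. There were 7 at day 28 and 10 over both days. The medians were 1.26, 0.98 and 1.12 and limma's lowest adjusted p-values 0.334, 0.637 and 0.189, in that order. The number of NP rats 5a and 5f occurred in no LP rat, and that of LP rats 7c and 7f in no NP rat. These rats thus gave no comparison of the diets within a number. Each mother had 1 diet in pregnancy, so NP and LP rats of a number had different mothers. With the block, 1 member was lower between the days in LP rats and 1 in the interaction, and with diet and number as a block 1 was lower between the days in LP rats, where the fit without a block gave 0 in each. Rats with the same number did not always deviate together. Their correlations were 0.093 to 0.132 between NP and LP at day 21 and 0.089 to 0.096 at day 28. Between the days they were 0.031 to 0.169 in NP and -0.055 to 0.379 in LP. Rats with different numbers had -0.201 to 0.211, -0.119 to 0.070, -0.153 to 0.008 and -0.310 to 0.067, in the same order. Between the days in NP, every same-numbered pair thus lay above every other pair. The labels do not say what a number marks, so the main fit had no block. Whether same-numbered rats of a diet share a mother was not settled.

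Leaving out 1 array at a time gave 0 to 7 members higher at an unadjusted p under 0.05 at day 21, 0 to 1 at day 28 and 1 to 8 over both days, and 0 to 1 lower between the days in LP rats and in the interaction. At day 28 the diet difference of Elf5 ran from -0.22 to 0.22 and that of Ehf from -0.19 to 0.21. Elf5 was -0.0648 with normexp background correction and -0.17 with the row on the slide, and Ehf -0.33 with the row. Between the days over both diets, leaving out 1 array gave -0.069 to 0.38 for Krt7, -0.42 to 0.12 for Krt8, -0.15 to 0.23 for Krt18, -0.051 to 0.34 for Krt19, -0.20 to 0.23 for Epcam, -0.10 to 0.34 for Cdh1, -0.22 to 0.15 for Gata3, -0.29 to 0.0021 for Foxa1 and -0.25 to 0.22 for Elf5. With quantile normalization Krt18 was -0.058 and Epcam -0.011 between the days. A filter that asked for a signal above background on every array removed Ehf and kept the other 9 members.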

Other observations

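Proliferation genes, which are needed for cell division, had 6 of 6 differences above 0 in LP against NP at each day. Of all genes, 52.4% were above 0 at day 21 and 42.6% at day 28. The proliferation genes had a median of 0.24 at day 21 and 0.87 at day 28. At either day 0 of them passed an unadjusted p under 0.05 in limma. The day 28 median was 0.16 without NP rat 4f, and that of day 21 was 0.04 without NP rat 6a and 0.49 without NP rat 4a. Their mean over the list was lowest in NP rat 4f of day 28, at -2.18, against -0.33 to 0.60 on the other 11 arrays. The same rat had the lowest value in 5 of the luminal genes. By staining for the protein PCNA, the paper found proliferation in the terminal end buds of the ducts lower in LP at both days. That is another measure, in another part of the tissue, than RNA of the whole gland. Of 5 mesothelium markers 2 could be tested, with a median of 0.59 at day 21 and 1.03 at day 28, or 0.24 without LP rat 6a and 0.54 without NP rat 4f. Hepatocyte markers, with 6 of 7 tested, had a median of -0.82 at day 21 and 0.02 at day 28.

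Genes that ran most against the luminal genes over the arrays, after group means were taken away, were Ppp1r12c at an r of -0.933 and Abcc5 at -0.922, beside 3 probes without a gene symbol at -0.928, -0.923 and -0.911. These are correlations over 12 arrays among 17410 genes ranked, given as a description.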
